A study of Mus musculus with 6 samples.

Results

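Mouse carries 2 paralogous clusters of miRNA hairpins that encode miR-23, miR-27 and miR-24. The Mir23a cluster holds Mir23a, Mir27a and Mir24-2, and the Mir23b cluster holds Mir23b, Mir27b and Mir24-1. These 6 rows were taken by gene name from a table of 1155 miRNA rows, whatever their values. They were measured in 3 small RNA libraries from Fbxw7 KO mouse embryonic fibroblasts and in 3 libraries from WT fibroblasts, connective tissue cells cultured from embryos in DMEM with serum and non-essential amino acids. All 6 libraries share this cell type and medium. The sources used here do not give the means of deletion, the strain, the age of the embryos or the passage. The table holds no Fbxw7 mRNA, so the genotype of each library rests on its label. A number from 1 to 3 marks each library within its genotype, and the KO libraries carry the name MUT. Nothing in the labels ties libraries to separate embryos or cultures, so a p-value here measures the spread between these libraries, which may be technical.

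Hairpins of such a cluster are cut from 1 long primary transcript, and each yields mature strands that guide Argonaute to mRNAs through the seed, the bases near the 5′ end that pair with the target. Paralogs with the same seed are expected to recognise overlapping sets of mRNAs. The miR-23, miR-27 and miR-24 families are known from blood vessel growth, muscle and fat cell differentiation; miR-27 represses the adipogenic factor PPARG, and in human cells miR-23 is a Myc-repressed inhibitor of glutaminase. FBXW7 is the part of a ubiquitin ligase that selects Myc, cyclin E, Jun and Notch for destruction. The comparison of the genotypes asks which miRNAs differ when this ligase component is missing.

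Both clusters are compact and lie on the plus strand of mm10. Mir23a spans 84208518 to 84208592 of chromosome 8, Mir27a spans 84208672 to 84208758 and Mir24-2 spans 84208815 to 84208921, so that the cluster covers 404 bases. In GENCODE M21 the first 2 lie outside any other gene, and the end of Mir24-2 touches an exon of the lincRNA gene Gm26532. Mir23b spans 63300484 to 63300557 of chromosome 13, Mir27b spans 63300712 to 63300784 and Mir24-1 spans 63301208 to 63301275, over 792 bases. This cluster lies inside the protein-coding gene 2010111I01Rik, with Mir23b in an intron and Mir27b and Mir24-1 within annotated exons. It also lies antisense to an intron of Fancc.

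**Figure D1:**
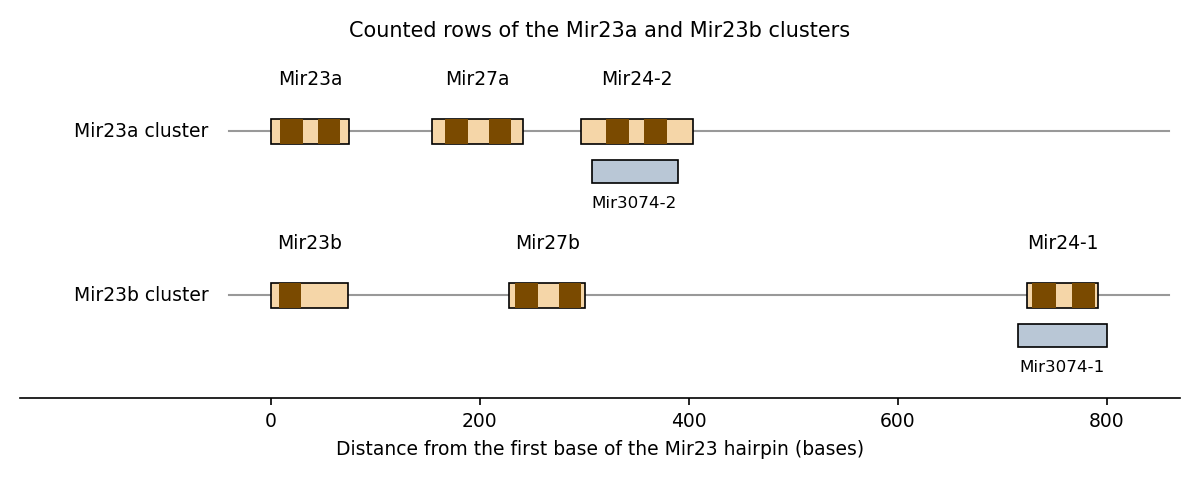
Counted rows of the 2 clusters, drawn to scale as the distance in bases from the first base of the Mir23 hairpin. Light boxes are hairpins, dark boxes are the mature strands listed by RefSeq (mmu-miR-23b-3p is not drawn), and grey boxes are rows on the opposite strand. The Mir3074 rows cover both mature strands of each Mir24 hairpin.

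The mature strands show which members share a seed and which a short read can tell apart. They are given 5′ to 3′ from RefSeq on GRCm38.p6, with the seed (bases 2 to 8) in capitals, and mmu-miR-23b-3p is named only.
mmu-miR-23a-3p: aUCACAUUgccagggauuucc
mmu-miR-27a-3p: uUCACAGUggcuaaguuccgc
mmu-miR-27b-3p: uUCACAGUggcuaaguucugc
mmu-miR-24-3p: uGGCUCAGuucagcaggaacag
mmu-miR-24-2-5p: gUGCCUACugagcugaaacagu
mmu-miR-24-1-5p: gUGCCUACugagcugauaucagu
The 2 miR-27 strands share the seed UCACAGU and differ by 1 of 21 bases, C19U counted from the 5′ end of miR-27a-3p. No other strand among the 1738 mature entries of the table has that seed. Both Mir24 hairpins carry the identical miR-24-3p, while their 5p strands share the first 16 bases and the seed.

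The longest identical stretch between paralogous hairpins, in capitals below, was 20 bases for the Mir23 pair, 20 for the Mir27 pair and 28 for the Mir24 pair. No member shared a longer stretch with any other of the 1005 hairpins searched. The Mir23 and Mir24 pairs are shown because one could be counted by copy and the other could not.
Mir23a: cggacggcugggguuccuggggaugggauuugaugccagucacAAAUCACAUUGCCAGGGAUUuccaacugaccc
Mir23b: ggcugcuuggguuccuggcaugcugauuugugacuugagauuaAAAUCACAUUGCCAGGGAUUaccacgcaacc
Mir24-2: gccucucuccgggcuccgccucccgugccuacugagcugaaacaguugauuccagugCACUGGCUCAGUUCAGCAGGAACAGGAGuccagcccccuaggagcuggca
Mir24-1: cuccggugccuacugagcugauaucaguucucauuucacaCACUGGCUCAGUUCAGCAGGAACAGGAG
Reads that lie wholly inside such a stretch fit both copies. The authors' counting left out reads with several alignments, so the counts of Mir23a, Mir23b, Mir27a and Mir27b may be too low by an unknown share. A read with an altered base near its 3′ end could also be counted for the wrong copy, which was not tested.

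Neither Mir24 hairpin had a single count in any of the 6 libraries. Counting ignored strand and by default dropped reads over 2 rows, and the Mir3074-2 and Mir3074-1 rows on the opposite strand cover both mature strands of Mir24-2 and Mir24-1. Those rows were at 0 as well. Of the 36 rows in the table that lie wholly inside another row, 35 were at 0 in all libraries, the exception being Mir221, against 41.9% of all rows. Among reads that could be assigned, 0 counts allow up to 0.598 to 1.02 CPM, here without TMM scaling (3 counts in a library, counting error only), but this limit does not apply to reads that the counting dropped. Full-length miR-24-3p reads also fit both hairpins, and the counting left out reads with several alignments. The level of miR-24 and its change without Fbxw7 were therefore not measurable, and no ratio of Mir24-2 to Mir24-1 could be formed.

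The libraries held 2932439 to 5019700 counts, and the members left for testing had 6164 to 239217 counts each. Counting error was small beside the spread between libraries: the lowest, Mir23b in Fbxw7 KO replicate 1, held 0.196% of counts with a 95% Wilson interval of 0.191% to 0.201%. Fbxw7 KO replicate 3 stood apart from replicates 1 and 2 on the second principal component of all tested rows (scores of −6.45, 2.90 and 3.54). The 8 fibroblast marker rows of the table held 52.0% to 55.3% of counts in Fbxw7 KO and 51.3% to 52.3% in WT, with Mir21a highest on average, although 1 of them was at 0. Both endothelial rows, Mir126a and Mir126b, were at 0, but they overlap each other on opposite strands and could lose reads as the Mir24 rows could. Blood cell, epithelial, neuronal and liver rows each held at most 0.00618% of counts in any library, and muscle rows, led by Mir206, at most 0.0405%, with 4 of 5 muscle rows at 0. Several of the muscle and neuronal rows are numbered copies of a miRNA, and reads that fit several copies were left out of the counts. Low counts in such rows therefore do not show that these miRNAs were absent. The part of other cells in the results was not tested.

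Among the counts that could be assigned, Mir27b and Mir27a were among the most abundant miRNA rows, and Mir23a and Mir23b lay far below their cluster mates. Rows that lost reads in the counting could stand too low in such a ranking. Per length, Mir27a stood at 7.75 ± 1.64 times Mir23a in Fbxw7 KO and 11.4 ± 1.17 times in WT, and Mir27b at 20.1 ± 1.34 times Mir23b in Fbxw7 KO and 19.3 ± 0.722 times in WT (ratio of deposited FPKM, SD, n = 3 each). By counts, Mir27b ranked 3rd to 5th in every library and Mir27a 5th to 8th, while Mir23a ranked 32nd to 39th and Mir23b 36th to 39th. Hairpins of different length were compared by the FPKM values that the authors deposited, which give the level per kilobase of hairpin. The mature strands listed are 21 to 23 bases long whatever the hairpin, so values per length can differ from ratios of counts, which are given below. Mir27b averaged 644384 ± 180615 FPKM in Fbxw7 KO and 652219 ± 36677 in WT (SD, n = 3 each). Mir27a averaged 350628 ± 48944 FPKM in Fbxw7 KO and 372472 ± 21348 in WT. It was below Mir27b in all 6 libraries.

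The 2 miR-23 hairpins stood closer together in WT than in Fbxw7 KO. Mir23a averaged 45743 ± 3453 FPKM in Fbxw7 KO and 32777 ± 2071 in WT, and Mir23b averaged 31846 ± 6957 FPKM in Fbxw7 KO and 33798 ± 3103 in WT. Per length, Mir23a stood at 1.57, 1.59 and 1.23 times Mir23b in Fbxw7 KO replicates 1 to 3, against 1.04, 1.00 and 0.882 times in WT. The order of the 2 differed among the WT libraries, whose ranges overlapped, whereas Mir23a was above Mir23b in each KO library. Such ratios between different miRNAs are ratios of reads and not of molecules.

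Of the 6 members, 4 passed the filter on low counts and 1, Mir23a, changed between the genotypes. It rose 1.37-fold in Fbxw7 KO, while Mir27a, Mir23b and Mir27b did not pass the test. That is 1 of 4, against 25.4% of the 283 tested rows called in either direction and 15.2% called as higher there (quasi-likelihood test of edgeR, adjusted p under 0.05), so the share of members called was near the background. No member fell, against 10.2% of tested rows. The CPM ranges of KO and WT did not overlap for 1 of the 4, against 43.8% of tested rows, and no member lay wholly below WT, against 20.1%. In bulk RNA, fewer cells of a type and less RNA per cell cannot be told apart.

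Mir23a had 3099, 3501 and 3613 CPM in Fbxw7 KO replicates 1 to 3, against 2565, 2409 and 2455 CPM in WT replicates 1 to 3. Every KO library was above every WT library, as for 23.7% of all tested rows. The means were 3404 ± 271 CPM in Fbxw7 KO and 2476 ± 80.0 CPM in WT (SD, n = 3 each), and the log2 fold change was 0.46 (SE 0.122, edgeR adjusted p = 0.0251). The call ended without Fbxw7 KO replicate 2 (adjusted p = 0.115), without WT replicate 1 (0.0577) or WT replicate 2 (0.102), and with scaling factors from rows outside the imprinted Dlk1-Dio3 region (0.0691); the adjusted p ranged from 0.0175 (DESeq2) to 0.115 over 17 alternatives. Over all tested rows the median stood at 0.05, and at −0.07 with that other scaling. Relative to the median, Mir23a stood at 0.41 and, with that scaling, at 0.40. A change of scaling moves every row and the median nearly alike, so this likeness does not bear on the call.

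Mir27a, the neighbour of Mir23a in its cluster, had 33679, 31634 and 25496 CPM in Fbxw7 KO replicates 1 to 3, against 31937, 35636 and 30553 CPM in WT. The groups overlapped, and the lowest value was that of Fbxw7 KO replicate 3. Its log2 fold change was −0.11 (SE 0.140, edgeR adjusted p = 0.601), with an interval of 2 SE from −0.39 to 0.17. Without Fbxw7 KO replicate 3 it was 0.0088.

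**Figure D2:**
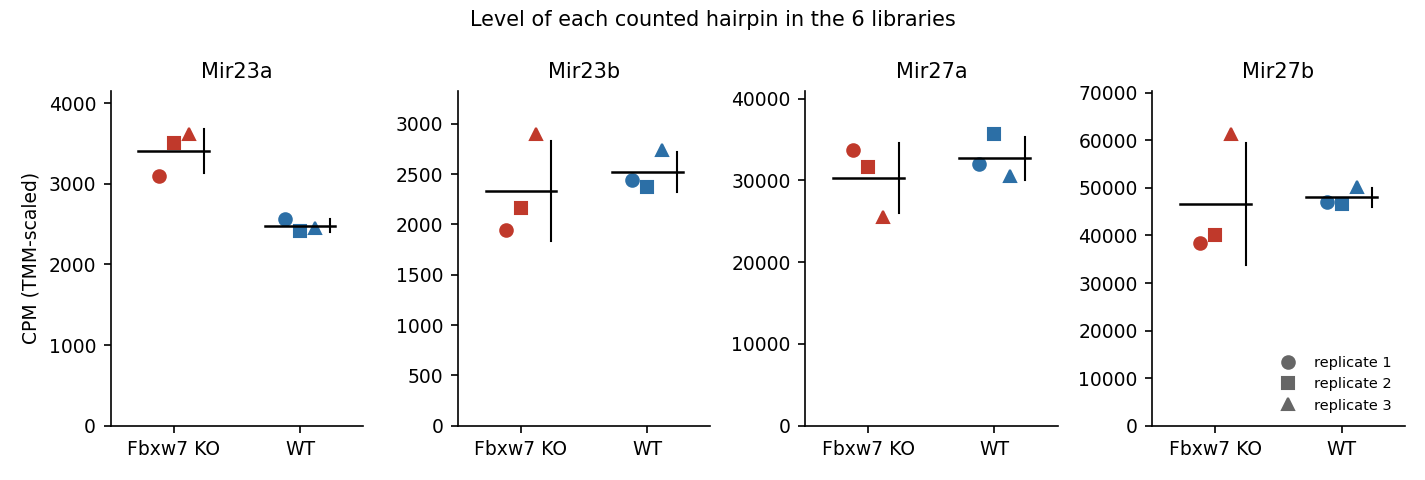
CPM of the 4 counted hairpins in Fbxw7 KO (red, left) and WT (blue, right); symbols mark replicates 1 to 3, horizontal lines the mean of 3 libraries and vertical lines ± 1 SD, and each axis starts at 0. Mir23a at 3099 to 3613 CPM in Fbxw7 KO lies above 2409 to 2565 in WT, and Fbxw7 KO replicate 3 is highest for Mir23b and Mir27b and lowest for Mir27a.

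In the Mir23b cluster neither counted hairpin passed the test. Mir23b had 1945, 2168 and 2897 CPM in Fbxw7 KO replicates 1 to 3, against 2438, 2377 and 2745 CPM in WT. Replicates 1 and 2 of the KO lay below every WT library and replicate 3 above. The log2 fold change was −0.11 (SE 0.167, edgeR adjusted p = 0.679, interval of 2 SE −0.44 to 0.22).

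Mir27b followed the same order of libraries, with 38453, 40103 and 61289 CPM in Fbxw7 KO, against 47109, 46667 and 50174 CPM in WT. Again KO replicates 1 and 2 lay below the WT range and replicate 3 above it. The log2 fold change of Mir27b was −0.04 (SE 0.180, edgeR adjusted p = 0.895, interval of 2 SE −0.40 to 0.32). Without Fbxw7 KO replicate 3 it was −0.28 for Mir27b (adjusted p = 0.0662) and −0.28 for Mir23b (0.133). Without Fbxw7 KO replicate 1 the sign turned, to 0.076 for Mir27b and 0.0042 for Mir23b, and without KO replicate 2 Mir27b was at 0.022. For Mir23a the value without Fbxw7 KO replicate 3 was 0.42 (adjusted p = 0.0244).

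**Figure D3:**
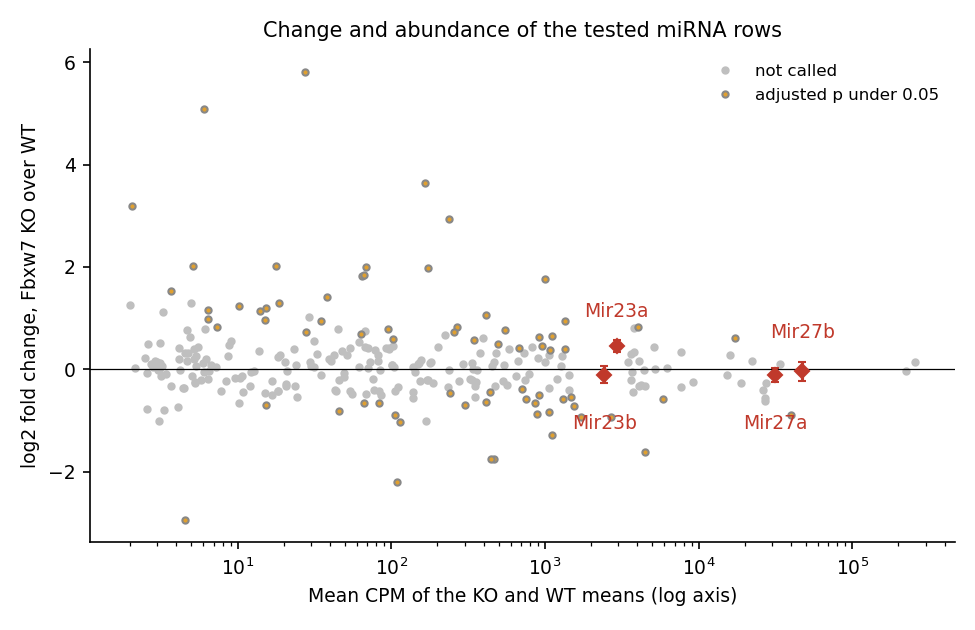
Log2 fold change of Fbxw7 KO over WT against mean CPM (log axis) for the 283 tested rows, with the 4 members as red diamonds ± SE and called rows in ochre. Mir23a (0.46) stands above the zero line, while Mir23b, Mir27a and Mir27b (−0.11 to −0.04) lie near it among the rows that were not called.

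Taking the clusters as wholes, their shares of all counts overlapped between the genotypes with all 6 libraries, and the differences changed sign without Fbxw7 KO replicate 3. The Mir23a cluster held 3.71%, 3.53% and 3.03% of counts in Fbxw7 KO replicates 1 to 3, against 3.42%, 3.50% and 3.42% in WT. The difference was −0.029 percentage points (exact 2-sided permutation p = 1). Without Fbxw7 KO replicate 3, both KO libraries lay above every WT library and the difference was 0.169 points (exact permutation p = 0.1, below which 2 against 3 libraries cannot go). The Mir23b cluster held 4.08%, 4.24% and 6.67% in Fbxw7 KO, against 4.92%, 4.52% and 5.49% in WT, a difference of 0.024 percentage points (exact permutation p = 1). Without Fbxw7 KO replicate 3 it was −0.815 points (exact permutation p = 0.2), with both KO libraries below every WT library, and it was also negative without WT replicate 1 (−0.0046) or WT replicate 2 (−0.206). Both sums consist mostly of Mir27a or Mir27b and hold no miR-24.

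Ratios formed within a library do not depend on the scaling between libraries. The log2 ratio of Mir23a to Mir23b was 0.67, 0.69 and 0.32 in Fbxw7 KO replicates 1 to 3, against 0.07, 0.02 and −0.16 in WT. The ranges did not overlap, and the log2 ratio was higher by 0.58 in Fbxw7 KO (exact 2-sided permutation p = 0.1, below which 3 against 3 libraries cannot go). Put as a share, Mir23a supplied 59.6% ± 3.53 of the Mir23a and Mir23b counts in Fbxw7 KO and 49.6% ± 2.13 in WT (SD, n = 3 each). Without Fbxw7 KO replicate 3 the difference was 0.70.

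For the Mir27 pair the genotypes overlapped. The log2 ratio of Mir27a to Mir27b was −0.19, −0.34 and −1.27 in Fbxw7 KO, against −0.56, −0.39 and −0.72 in WT. Fbxw7 KO replicate 3 lay below every WT library, and KO replicates 1 and 2 above. The difference was −0.04 (exact permutation p = 1), and 0.29 without Fbxw7 KO replicate 3 (exact permutation p = 0.2). Without Fbxw7 KO replicate 1 it was −0.25. Mir27a supplied 46.7%, 44.1% and 29.4% of the Mir27 counts in the KO libraries, against 40.4%, 43.3% and 37.8% in WT. The ratio of whole clusters followed that of the Mir27 pair, with a difference of 0.0088 (exact permutation p = 1) and of 0.32 without Fbxw7 KO replicate 3. It turned negative without Fbxw7 KO replicate 1 (−0.18), Fbxw7 KO replicate 2 (−0.11) or WT replicate 3 (−0.07).

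Within the Mir23a cluster the balance of its 2 counted hairpins lay in separate ranges in the 2 genotypes, and within the Mir23b cluster the ranges overlapped. Mir27a had 10.9, 9.03 and 7.06 counts for each Mir23a count in Fbxw7 KO replicates 1 to 3, against 12.5, 14.8 and 12.4 in WT. Those ranges did not overlap (difference in log2 ratio −0.58, exact permutation p = 0.1, the smallest possible). The difference was −0.41 without Fbxw7 KO replicate 3. Mir23a, whose own CPM ranges did not overlap, stands in this ratio and in Mir23a over Mir23b, so the 2 are not separate results. Other pairs of cluster mates were not examined, and the CPM ranges of single rows did not overlap for 43.8% of tested rows. Mir27b had 19.8, 18.5 and 21.2 counts for each Mir23b count in Fbxw7 KO, against 19.3, 19.6 and 18.3 in WT, with overlapping ranges (difference 0.05, exact permutation p = 0.4). Over the 7 ratios and shares tested, the Benjamini-Hochberg adjusted value of the smallest p was 0.35.

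**Figure D4:**
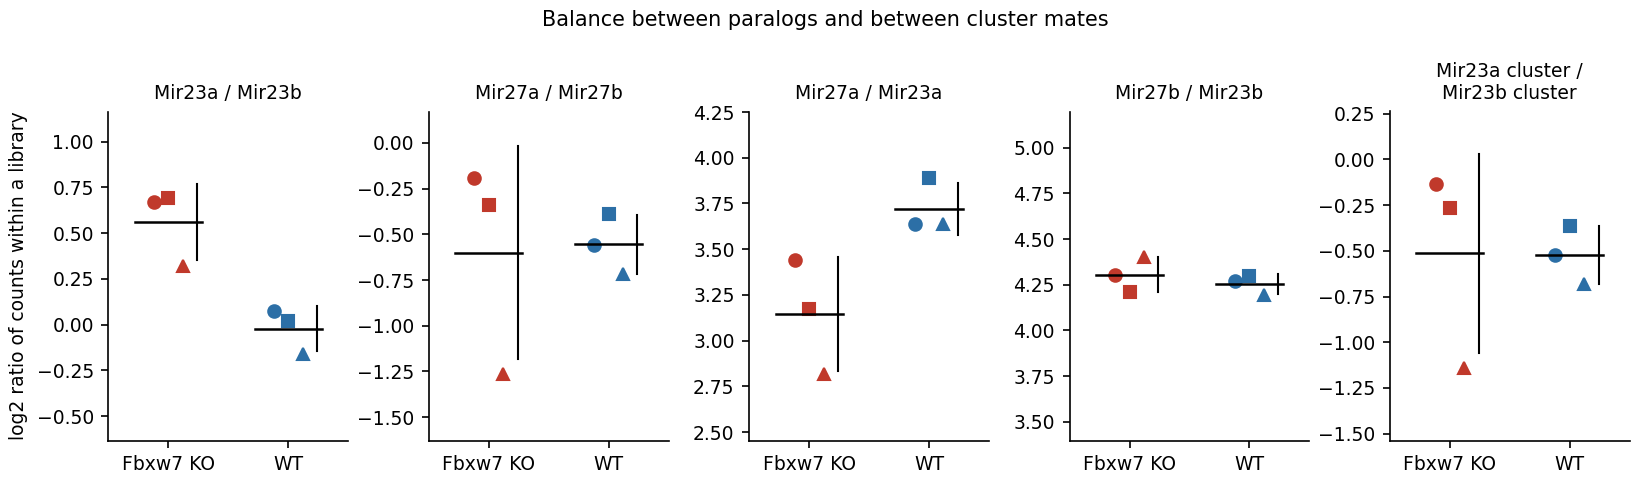
Log2 ratio of counts within each library for the paralog pairs, the cluster mates and the summed clusters, with Fbxw7 KO in red at the left and WT in blue at the right; symbols mark replicates 1 to 3 (circle, square, triangle), lines show the mean and ± 1 SD, and all panels span the same range. Fbxw7 KO and WT do not overlap for Mir23a over Mir23b or for Mir27a over Mir23a, and they overlap in the other 3 panels.

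Summed over paralogs, the miR-27 pool dwarfed the miR-23 pool in both genotypes. Mir23a and Mir23b together had 5044, 5669 and 6510 CPM in Fbxw7 KO, against 5002, 4786 and 5200 CPM in WT, with KO replicate 1 inside the WT range. Mir27a and Mir27b together had 72132, 71737 and 86785 CPM in Fbxw7 KO, against 79046, 82303 and 80726 CPM in WT. For this pool KO replicates 1 and 2 lay below every WT library and replicate 3 above. These sums were not tested.

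A set of 15 other paralogous pairs gives a setting for these differences, and both copies were tested in 12 of them. The fitted log2 fold changes of the 2 copies differed by 0.05 to 1.16, with a median of 0.30. For Mir23a and Mir23b the difference was 0.57, exceeded in 2 of the 12 pairs, Mir10a with Mir10b and Mir100 with Mir99a. For Mir27a and Mir27b it was 0.07. In 5 of the 12 pairs the KO and WT ratios did not overlap, so non-overlap as seen for Mir23a over Mir23b was common among them. Mir99a with Mir99b and Mir100 with Mir99a are both among the 5 and share Mir99a, so the pairs are not all separate.

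**Figure D5:**
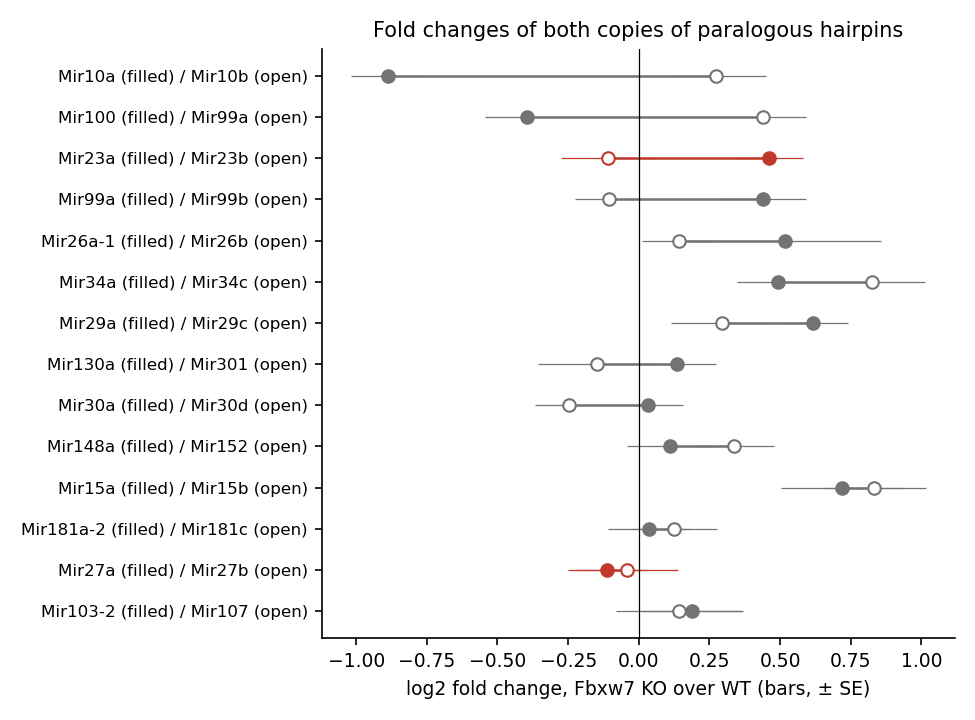
Log2 fold change of Fbxw7 KO over WT for both copies (first copy filled, second open, bars ± SE) of the Mir23 and Mir27 pairs (red) and 12 other pairs (grey), sorted by the difference between copies. Mir23a and Mir23b stand at 0.46 and −0.11, the third largest difference of the 14 pairs, and Mir27a and Mir27b lie side by side.

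Mir23a and Mir23b are also among 30 miRNA names listed here as reported to be repressed by Myc, a substrate of FBXW7. Of the 23 that were tested, 7 rose, 1 fell and 15 did not pass the test in Fbxw7 KO. Thus 30.4% were called as higher, against 15.2% of all tested rows, and the median log2 fold change was 0.40, against 0.05 over all tested rows. The members that rose were Mir195a (log2 fold change 1.30), Mir15b (0.83), Mir16-2 (0.80), Mir15a (0.72), Mir29a (0.62), Mir34a (0.49) and Mir23a. Mir15a, Mir15b, Mir16-2 and Mir195a belong to 1 family that represses cyclins, Mir29a represses collagen genes and Mir34a is a p53 target. Mirlet7a-2, a let-7 hairpin, fell by 0.38 on the log2 scale (edgeR adjusted p = 0.0419). The list was chosen with results of these data known and is no independent evidence of a direction. Myc itself was not measured, and its part in these differences was not tested.

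The miRNAs whose log2 CPM followed each counted member most closely over the 6 libraries were sought outside the 6 members. Mir23b could therefore not be listed for Mir27b, or the reverse. They differed from member to member, except that Mir484 stood among those of both Mir23b and Mir27b. For Mir23a they were Mir29a (Pearson r = 0.985, n = 6) and Mir344b (0.978), both called as higher in Fbxw7 KO. Mir29a had 19458, 21927 and 21402 CPM in Fbxw7 KO, against 14576, 13468 and 12899 CPM in WT. For Mir27a they were Mir679 (0.976) and Mir379 (0.970), both on chromosome 12 and lowest in Fbxw7 KO replicate 3. For Mir23b they were Mir665 (0.953) and Mir484 (0.914), and for Mir27b Mir484 (0.913) and Mir98 (0.892). Mir484 had 423, 376 and 674 CPM in Fbxw7 KO, against 552, 521 and 644 CPM in WT, the same order of KO replicate 3 above and replicates 1 and 2 below WT as in the Mir23b cluster. These correlations describe 6 libraries of 2 genotypes that share their scaling. The rows most alike were picked from all tested rows other than the 6 members.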

How the data were processed

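The sources state little of the upstream work. Per the labels' protocols, libraries for miRNA-seq followed Illumina TruSeq after Trizol extraction and column purification. The submitters' processing notes name mm10, Cufflinks 2.2.1, deepTools, TopHat2 2.1.1 and SAMtools 1.5, without their roles or any trimming. Per the file headers, the authors made the read counts per miRNA gene name with featureCounts 1.6.4, strand ignored, with no option to count reads with several alignments or over 2 rows. Both arms of a hairpin fall into 1 count. The authors' deposited FPKM values equal count over length over TMM-scaled library total wherever they are positive (largest relative difference 8.5e-15).

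Counts were tested with edgeR 4.0.16 (R 4.3.3; TMM factors, filterByExpr, glmQLFit with robust estimation, glmQLFTest), genotype only, Benjamini-Hochberg adjusted over the 283 rows kept. CPM values use TMM-scaled totals, and SE values come from the F statistic. Ratios within libraries used a pseudocount of 0.5 and exact 2-sided permutation tests (numpy 2.4.6). Alternatives used DESeq2 1.42.0, limma 3.58.1, other scalings and filters, and leaving out libraries. The edgeR script was tested on simulated data. Named miRNAs are the 6 members, the called rows of the Myc list and the top row of each marker list. For each counted member, the 2 tested rows outside the 6 members most correlated with it were also named. Others (overlapping rows, neighbours, pairs) were picked by position or after their values were seen. Members and lists were chosen with earlier results of these data known.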

Additional observations from a re-analysis of the deposited data

How the results depend on the processing

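Across 17 alternatives Mir23a kept a positive log2 fold change (0.33 to 0.52) and kept its call in 13. The number of members called was 0 with scaling factors from rows outside the Dlk1-Dio3 region and 0 to 1 when 1 library was left out, where the number of changed rows was 34 to 78, against 72 (43 higher and 29 lower in Fbxw7 KO; 30 and 34 with the scaling from outside the region); it was 34 without Fbxw7 KO replicate 2, 35 without WT replicate 2, 42 without WT replicate 1, 48 without KO replicate 1, 66 without WT replicate 3 and 78 without KO replicate 3. The cause was not tested. Values near zero changed sign. Leaving out 1 library gave log2 fold changes of −0.20 to 0.0088 for Mir27a, −0.28 to 0.0042 for Mir23b and −0.28 to 0.076 for Mir27b, which was 0.010 with library totals only. It gave differences of −0.25 to 0.29 in the log2 ratio of Mir27a to Mir27b, −0.18 to 0.32 in that of the clusters, −0.17 to 0.17 percentage points in the Mir23a cluster share and −0.81 to 0.48 in the Mir23b cluster share. Of counts outside the Dlk1-Dio3 region, the differences in share were −0.20 points for the Mir23a cluster and −0.27 for the Mir23b cluster. The differences in Mir23a over Mir23b (0.51 to 0.70) and Mir27a over Mir23a (−0.72 to −0.41) kept their direction. That in Mir27b over Mir23b (0.0042 to 0.10) also stayed positive but was near zero without Fbxw7 KO replicate 3. Its ranges overlapped between the genotypes. Deviations of same-numbered libraries correlated at −0.057, 0.136 and 0.157, so the numbers were not taken as pairs; with the replicate number as a block, 76 rows changed and Mir23a had an edgeR adjusted p of 0.0298. Depth did not limit these members, but Mir24-2 and Mir24-1 could not be counted, and their ratio was not run.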

Other observations

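The nearest counted rows to the Mir23a cluster are Mir181c and Mir181d, on the opposite strand of chromosome 8 with 29556 and 29730 bases between them and Mir23a. They were chosen by position. Mir181c had 138, 170 and 166 CPM in Fbxw7 KO replicates 1 to 3, against 157, 135 and 144 CPM in WT, with overlapping ranges (log2 fold change 0.12, edgeR adjusted p = 0.592). Mir181d had 487, 519 and 518 CPM in Fbxw7 KO, against 636, 636 and 624 CPM in WT. Its ranges did not overlap, as for 43.8% of all tested rows in either direction, but it did not pass the test (log2 fold change −0.32, SE 0.112, edgeR adjusted p = 0.0738). The row nearest to the Mir23b cluster, Mir713, lies 539637 bases away.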
